A study of Homo sapiens with 6 samples.

Results

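The genes of cholesterol and fatty acid synthesis were examined in H1299 cells, a human lung cancer cell line, with and without a short hairpin RNA against Ephexin1. The set was chosen from a list of 46 gene symbols that covers the enzymes of both pathways, the proteins that control their transcription, and genes of lipid transport and activation. All 46 were found among the 26255 genes in the table. The 3 shControl libraries came from cells carrying a control hairpin and the 3 shEphexin1 libraries from cells carrying the Ephexin1 hairpin, and RNA was sequenced from both groups without any further treatment. Both hairpins were expressed from a pSilencer vector, and all cells were grown in the same medium with fetal bovine serum, which carries lipoproteins and fatty acids. The study's methods describe stable knockdown clones, and the 3 shEphexin1 libraries share a stem in their names that may mark 1 clone. A difference between the groups can therefore not be told apart from a difference between clones. No label says that the 3 libraries of a group came from separate cultures, so p-values measure the spread between these libraries, which may be technical.

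Cells make cholesterol from acetyl-CoA through the mevalonate pathway and a long sterol branch, and they make fatty acids from the same precursor. Most enzymes of both routes are transcribed under SREBP factors, which SCAP escorts from the endoplasmic reticulum to the Golgi for cleavage when sterols are low and which INSIG proteins hold back when sterols are high. Liver X receptors, which pair with retinoid X receptors and respond to oxidised sterols, drive the export transporters ABCA1 and ABCG1 and also SREBF1 and SCD. In lung cancer cells these pathways supply membranes for growth.

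NGEF, the gene that encodes Ephexin1, was measured at 13.3, 11.7 and 16.4 FPKM (fragments scaled to transcript length and library size) with the control hairpin, against 9.81, 8.25 and 10.4 FPKM with the Ephexin1 hairpin. The groups did not overlap, and the shEphexin1 mean was 68.9% of the shControl mean (log2 fold change -0.53, SE 0.163, limma adjusted p = 0.103, and 0.00284 with replicate number as a block). VIM, a mesenchymal marker, ranged from 1979 to 2334 FPKM in shControl and from 2240 to 2670 FPKM in shEphexin1, and was higher in all 3 same-numbered pairs (log2 fold change 0.20, limma adjusted p = 0.366, and 0.0187 with the block). The epithelial keratin KRT18 ranged from 67.6 to 109 FPKM and from 36.3 to 54.7 FPKM, and fell (limma adjusted p = 0.0439). The summed level of markers of blood, endothelial and fibroblast cells was 0.445 to 0.634 FPKM in shControl and 0.707 to 0.895 FPKM in shEphexin1, and the blood markers PTPRC and CD3E were at 0 in all 6 libraries. The part of these genes in the results below was not tested. Replicate 2 stood apart in both groups, as its deviation from the group mean fell with the GC content of the transcript (Spearman's rho across 12211 genes was -0.797 with the control hairpin and -0.867 with the Ephexin1 hairpin) while that of replicates 1 and 3 rose with it (0.43 to 0.8). All 13 tested members with a GC content of at least 55% had their lowest value in replicate 2 in both groups. Same-numbered libraries deviated together, least clearly those of replicate 1, so each result is given without a block and, where the call changes, with replicate number as a block. Read depth is unknown because the values are FPKM. MVK, CYP51A1, GGPS1, SREBF1, NPC1, ACSS2 and ACACA overlap another gene on the opposite strand, and as the use of strand in counting is not stated, their values may hold reads of that gene.

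**Figure D1:**
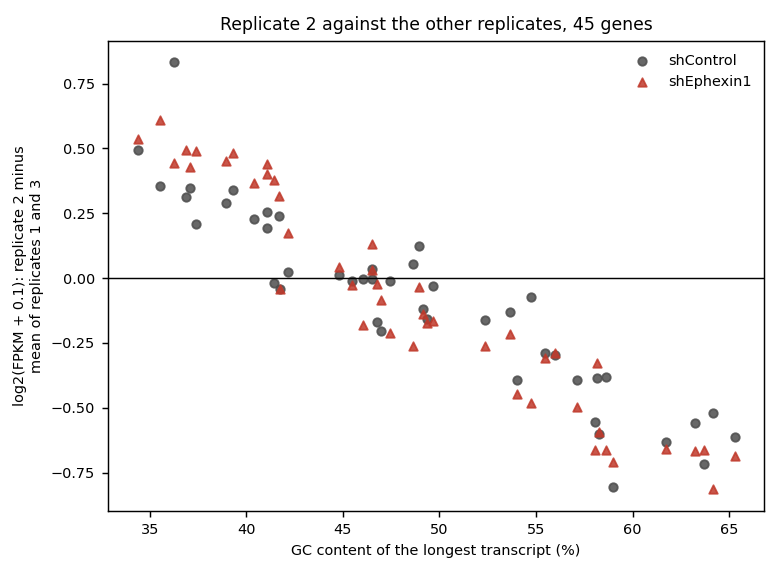
Difference of replicate 2 from the mean of replicates 1 and 3 (y axis, log2 scale) against the GC content of the longest transcript (x axis, percent) for the 45 tested members, with 1 point per member and group. The difference goes from above 0 in GC-poor members to below 0 in GC-rich members in both groups (rho across members, by Spearman's method, -0.937 for shControl and -0.971 for shEphexin1).

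Of the 46 genes, 45 passed the expression filter and were tested. ABCG1 was listed at 0 in all 6 libraries, as was H3F3A, a histone gene that all cells use. In the model without a block, 2 of 45 members passed the study's rule, a difference of at least 2-fold with an adjusted p no higher than 0.025, against 1.89% of all 16020 genes tested. Both were lower in shEphexin1, the fatty acid desaturase gene SCD and the cholesterol exporter gene ABCA1. Among all genes 0.999% were called lower and 0.893% higher. The study used Cuffdiff to find its changed genes, whereas these limits were applied here to limma results, so the calls are not the study's own. With the replicate block the count of members was again 2, against 3.47% of all genes (1.54% lower and 1.93% higher). At an adjusted p of at most 0.05 with no fold limit, 3 of 45 members (6.67%) were called, against 7.01% of all genes (4.32% lower and 2.69% higher), so that share was near the background. The added member was ACAT2, again lower.

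With the replicate block, 22 of 45 members had an adjusted p of at most 0.05, of which 18 were lower (40.0%) and 4 higher (8.89%). Among all genes 33.5% passed, 19.7% lower and 13.8% higher. With replicates 1 and 3 alone 12 members passed, 11 lower and 1 higher, against 17.3% of all genes (10.4% lower and 6.89% higher), and all 12 were among the 22. With a term for replicate 2 in place of the block 16 were lower and 3 higher, against 29.2% of all genes (17.1% lower and 12.2% higher). With a correction for GC content and transcript length 20 were lower and 3 higher, against 30.9% (18.4% lower and 12.4% higher), and with that correction and the block 21 were lower and 5 higher, against 37.1% (22.2% lower and 14.8% higher). Besides SCD and ABCA1, the other 43 members differed less than 2-fold. The median log2 fold change of the 45 members was -0.18 and that of all genes -0.0093, and without SCD and ABCA1 the members' median was -0.15. Groups did not overlap in 14 members that were lower in shEphexin1 (31.1%, against 15.4% of all genes) and in 2 that were higher (4.44%, against 12.8%), and 28.3% of all genes did not overlap in either direction. After the GC correction these numbers were 27 lower (against 25.1% of all genes) and 6 higher (against 20.1%). In 28 members all 3 same-numbered pairs were lower in shEphexin1 (62.2%, against 33.0% of all genes), and in 5 all 3 were higher (11.1%, against 29.2%).

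**Figure D2:**
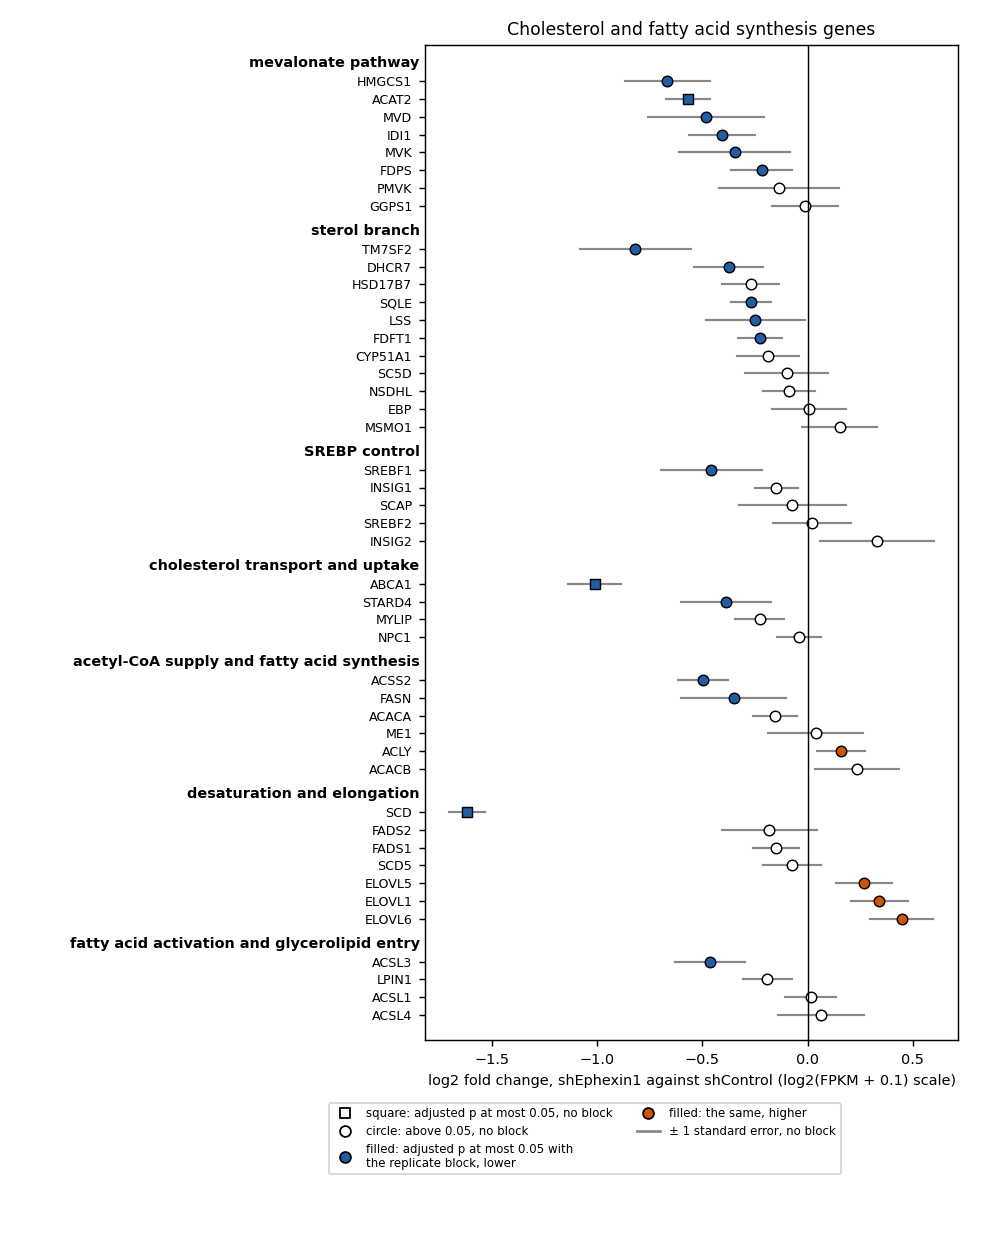
Log2 fold change of shEphexin1 against shControl (x axis, log2(FPKM + 0.1) scale) for the 45 tested members by role, with bars of ± 1 SE from the model without a block, square markers for an adjusted p of at most 0.05 in that model and filled markers for the same with the block. SCD (-1.62) and ABCA1 (-1.01) lie farthest to the left, and the 3 filled points farthest to the right are the elongase genes ELOVL6, ELOVL1 and ELOVL5.

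SCD, stearoyl-CoA desaturase, puts the double bond into stearate and palmitate to make monounsaturated fatty acids. It was at 240.3, 249.6 and 246.6 FPKM in shControl against 81.0, 81.1 and 77.8 FPKM in shEphexin1. The groups lay far apart and each was tight, and the shEphexin1 mean was 32.6% of the shControl mean (245.5 ± 4.76 and 79.9 ± 1.90 FPKM, SD, n = 3 each). SCD fell by 1.62 on the log2 scale (SE 0.0857, limma adjusted p = 0.000216), and 151 of the 16020 genes (0.943%) had a log2 fold change as low or lower. In shControl it ranked 275 of 26255 genes by mean FPKM and made up 16.7 to 18.2% of the summed FPKM of all members, and in shEphexin1 it made up 6.5 to 7.1%. The summed FPKM of the members was 1430 ± 52.0 in shControl and 1178 ± 31.7 in shEphexin1. The summed FPKM of all genes was also lower in shEphexin1 in each same-numbered pair. It ranged from 561300 to 651400 in shControl and from 516100 to 587200 in shEphexin1, so the fall of the member sum is partly shared by the whole table. Without SCD the members summed to 1195, 1126 and 1232 FPKM in shControl against 1116, 1060 and 1118 FPKM in shEphexin1, so much of the fall in their sum was that of SCD. SCD lies on chromosome 10 (102106990 to 102124583, plus strand, GRCh37), on an arm whose tested genes had a median log2 fold change of -0.30. With arm medians subtracted its log2 fold change was -1.31. In bulk RNA, fewer cells that express a gene and less of its RNA per cell cannot be told apart.

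ABCA1, which moves cholesterol out of the cell onto apolipoproteins, was at 6.0, 5.71 and 5.54 FPKM in shControl against 2.92, 2.76 and 2.72 FPKM in shEphexin1. Its groups did not overlap, and the shEphexin1 mean was 48.7% of the shControl mean. ABCA1 fell by 1.01 on the log2 scale (SE 0.127, limma adjusted p = 0.00717). It lies close to the 2-fold limit and missed the study's rule with a pseudocount of 1 FPKM (-0.83), with arm medians subtracted (-0.94), and without shControl replicate 1 (adjusted p = 0.0647), shControl replicate 3 (0.0357), shEphexin1 replicate 1 (0.0472) or shEphexin1 replicate 3 (0.0360).

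The promoters of SCD and ABCA1, the members called by the study's rule, are printed from RefSeq (GRCh38.p14), as the 250 bases before each gene's start in the direction of transcription. The SCD window is chr10:100346983-100347232 on the plus strand and the ABCA1 window is chr9:104928156-104928405 on the minus strand. Capitals mark matches on either strand to the CCAAT box (CCAAT), GC box (GGGCGG), E-box (CACGTG) and TATA box (TATAAA), which do not overlap each other here.
SCD: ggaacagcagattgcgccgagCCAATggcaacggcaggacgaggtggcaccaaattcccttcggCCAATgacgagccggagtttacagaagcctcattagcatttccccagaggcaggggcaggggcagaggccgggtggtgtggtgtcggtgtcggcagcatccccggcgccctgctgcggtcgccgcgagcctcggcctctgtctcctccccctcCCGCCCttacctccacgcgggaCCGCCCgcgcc
ABCA1: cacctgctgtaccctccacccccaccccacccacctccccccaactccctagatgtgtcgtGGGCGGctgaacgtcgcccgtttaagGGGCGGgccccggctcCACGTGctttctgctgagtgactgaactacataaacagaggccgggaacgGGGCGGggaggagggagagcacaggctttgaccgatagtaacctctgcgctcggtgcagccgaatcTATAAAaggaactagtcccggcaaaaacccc
SCD held 2 CCAAT boxes and 2 GC boxes. ABCA1 held 3 GC boxes, 1 E-box and 1 TATA box. Of the 46 members, 41 had a promoter in the table, and CCAAT occurred in 23 of them (56.1%), against 33.0% of 27305 promoters. GGGCGG occurred in 36 of 41 (87.8%, against 42.3%), CACGTG in 5 (12.2%, against 6.49%) and TATAAA in 3 (7.32%, against 11.1%). A match to TCACNCCAC, a form of the sterol regulatory element that SREBP binds, was found in 1 member promoter, that of SREBF2 (2.44%, against 0.875%). The 27305 promoters were not filtered by gene type or by expression in these cells, so they are not a matched background for the members. A match is a description of the letters only.

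Of the 5 genes that control SREBP, 1, SREBF1, fell with the block and not without it, a share of 20.0% that is near the 19.7% of all genes that were lower with the block. SREBF1, which encodes the SREBP factor of fatty acid genes, was at 61.9, 46.1 and 74.2 FPKM in shControl against 48.1, 31.9 and 53.3 FPKM in shEphexin1. Replicate 2 was lowest in both groups and the groups overlapped, while each same-numbered pair was lower in shEphexin1. Its log2 fold change was -0.46 (SE 0.239, limma adjusted p = 0.306), and with the block it fell (adjusted p = 0.00132). With a correction for GC content and length besides the block the value was -0.70.

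SREBF2, which encodes the SREBP factor of cholesterol genes, was at 26.5, 20.2 and 26.6 FPKM in shControl against 26.2, 19.5 and 29.2 FPKM in shEphexin1. The log2 fold change was 0.022 (95% interval -0.41 to 0.45), and its sign turned under several alternatives. SCAP, the escort protein, was at 23.9, 17.0 and 29.2 FPKM and at 23.6, 16.0 and 27.1 FPKM. On the log2 scale the difference was -0.072 (95% interval -0.67 to 0.52). With the GC correction and the block SCAP was lower (-0.26, adjusted p = 0.00675).

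INSIG1, an SREBP target as well as a retention protein, was at 28.9, 27.7 and 26.0 FPKM in shControl against 25.7, 25.3 and 23.5 FPKM in shEphexin1. The groups did not overlap, but the log2 fold change of -0.15 missed the threshold (limma adjusted p = 0.437, and 0.0510 with the block). INSIG1 lies on the arm 7q, whose median was 0.30, and with arm medians subtracted its value was -0.45. INSIG2, a retention protein from another gene, was at 4.54, 7.82 and 4.15 FPKM and at 6.89, 8.21 and 5.24 FPKM, with groups that overlapped (log2 fold change 0.33, adjusted p = 0.533, and 0.0489 with the GC correction and the block).

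All 8 members of the mevalonate pathway, which runs from acetyl-CoA to the isoprenoid diphosphates, had a log2 fold change below 0 (-0.67 to -0.011, median -0.38). Without the block 1 of 8 passed an adjusted p of 0.05 in limma, and 6 of 8 fell with it, against 19.7% of all genes. Of these 6, ACAT2, HMGCS1 and IDI1 also passed with replicates 1 and 3 alone. MVD, MVK and FDPS did not (limma adjusted p = 0.0677, 0.247 and 0.188). ACAT2, which joins a pair of acetyl-CoA molecules, was at 42.5, 42.6 and 41.3 FPKM in shControl against 25.9, 30.8 and 28.7 FPKM in shEphexin1. Its groups did not overlap, and it fell by 0.57 on the log2 scale (SE 0.105, limma adjusted p = 0.0244, and 0.0570 with quantile normalization). Leaving out any library but shEphexin1 replicate 2 put the adjusted p above 0.05, up to 0.137 without shControl replicate 1. ACAT2 overlaps TCP1 and SOD2 on the opposite strand, and whether the counting used strand is not stated.

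HMGCS1, which makes HMG-CoA, was at 6.58, 8.4 and 7.14 FPKM in shControl against 4.86, 5.67 and 3.50 FPKM in shEphexin1. No shEphexin1 library reached the lowest shControl library. Its log2 fold change was -0.67 (SE 0.202, limma adjusted p = 0.0984, and 0.0109 with the block). Its arm, 5p, had a median of -0.26, and with arm medians subtracted the value was -0.41. MVD, which makes isopentenyl diphosphate, was at 22.9, 15.4 and 28.2 FPKM and at 15.9, 11.3 and 20.2 FPKM, with overlapping groups. The log2 fold change was -0.48 (limma adjusted p = 0.353, and 0.00146 with the block).

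IDI1, the isomerase of isopentenyl diphosphate, was at 31.6, 37.2 and 30.7 FPKM in shControl against 23.8, 30.6 and 21.3 FPKM in shEphexin1. The groups did not overlap (log2 fold change -0.41, limma adjusted p = 0.179, and 0.00422 with the block). MVK, mevalonate kinase, and FDPS, which makes farnesyl diphosphate, also fell with the block and not without it, with log2 fold changes of -0.35 and -0.22 (limma adjusted p = 0.0207 and 0.00823 with the block). PMVK, the next kinase, had a mean of 8.55 FPKM in shControl and 7.71 FPKM in shEphexin1. GGPS1, which makes geranylgeranyl diphosphate, had means of 7.77 and 7.75 FPKM (log2 fold change -0.011, 95% interval -0.38 to 0.36).

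**Figure D3:**
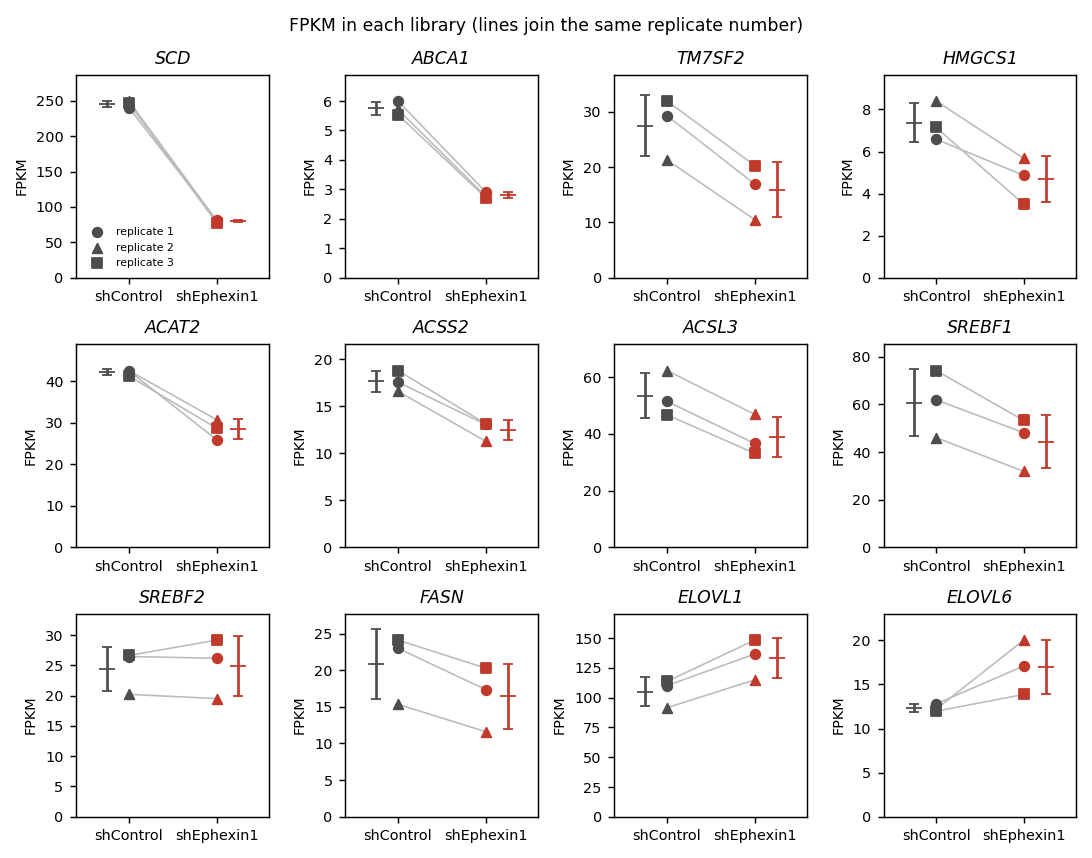
FPKM (y axis, from 0) in each shControl and shEphexin1 library for 12 members, with 1 symbol per replicate, thin lines joining the same replicate number, and bars at the side for the mean ± SD (n = 3). The groups stand clear of each other in SCD and ABCA1, and in SREBF1 and FASN replicate 2 is the lowest library of both groups.

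Of the 11 members of the sterol branch, which turns farnesyl diphosphate into cholesterol, 9 had a log2 fold change below 0 (range -0.82 to 0.15, median -0.23). None passed an adjusted p of 0.05 in limma without the block, and 5 of 11 fell with it, against 19.7% of all genes. TM7SF2, a sterol reductase, was at 29.3, 21.3 and 32.0 FPKM in shControl against 16.9, 10.5 and 20.3 FPKM in shEphexin1. Every shEphexin1 library was below every shControl library, and the shEphexin1 mean was 57.8% of the shControl mean. On the log2 scale the difference was -0.82 (SE 0.262, limma adjusted p = 0.114, and 0.000965 with the block). TM7SF2 overlaps VPS51 on the same strand, so reads in the shared part could belong to either.

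SQLE, squalene epoxidase, was at 36.0, 36.2 and 36.6 FPKM in shControl against 29.5, 31.9 and 28.8 FPKM in shEphexin1. The groups did not overlap, and the log2 fold change was -0.27 (SE 0.0963, limma adjusted p = 0.148, and 0.0102 with the block). Its arm, 8q, had a median of -0.24, and with arm medians subtracted the value was -0.029. DHCR7, a last-step reductase, FDFT1, squalene synthase, and LSS, which closes the first sterol ring system, fell with the block as well. Their log2 fold changes were -0.38, -0.23 and -0.25 (limma adjusted p = 0.00824, 0.0145 and 0.0209 with the block). For the other 6 members, CYP51A1, MSMO1, NSDHL, HSD17B7, EBP and SC5D, the adjusted p with the block was 0.0543 to 0.931 in limma. HSD17B7 was the member of these 6 whose groups did not overlap (6.98 ± 0.121 and 5.79 ± 0.749 FPKM, SD, n = 3 each).

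Among the other genes of cholesterol transport and uptake, STARD4, a carrier of sterol between membranes, was at 23.1, 30.8 and 20.6 FPKM in shControl against 18.2, 24.0 and 14.9 FPKM in shEphexin1. Replicate 2 was highest in both groups and the groups overlapped. Its log2 fold change was -0.39 (SE 0.214, limma adjusted p = 0.337, and 0.00323 with the block). MYLIP, a ubiquitin ligase that targets lipoprotein receptors, had means of 8.29 and 7.06 FPKM with no overlap (limma adjusted p = 0.302, and 0.0655 with the block). NPC1, which exports cholesterol from lysosomes, had means of 22.5 and 21.9 FPKM. The log2 fold change was -0.040, and as its arm, 18q, had a median of -0.44, the value with arm medians subtracted was 0.40.

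In acetyl-CoA supply and fatty acid synthesis, 3 of 6 members were below 0 and 3 above. ACSS2, which makes acetyl-CoA from acetate, was at 17.6, 16.6 and 18.8 FPKM in shControl against 13.1, 11.3 and 13.2 FPKM in shEphexin1. The groups did not overlap. On the log2 scale the difference was -0.50 (SE 0.118, limma adjusted p = 0.0503, and 0.0019 with the block), and -0.28 with arm medians subtracted (20q, median -0.22).

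FASN, fatty acid synthase, was at 23, 15.3 and 24.1 FPKM in shControl against 17.4, 11.6 and 20.3 FPKM in shEphexin1. The groups overlapped through replicate 2, which was lowest in both. Its log2 fold change was -0.35 (SE 0.250, limma adjusted p = 0.460), and with the block it fell (adjusted p = 0.00658). The value was -0.70 with the GC correction and -0.14 with arm medians subtracted.

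ACLY, which makes acetyl-CoA from citrate, was higher in every same-numbered pair. It was at 49.0, 43.5 and 48.2 FPKM in shControl against 55.4, 46.3 and 55.8 FPKM in shEphexin1, with overlapping groups (log2 fold change 0.16, limma adjusted p = 0.467, and 0.0371 with the block). ACACA, the acetyl-CoA carboxylase of the cytosol, was at 19.2, 19.8 and 17.3 FPKM and at 17.0, 16.6 and 17.0 FPKM. Its groups did not overlap, and its log2 fold change was -0.15 (limma adjusted p = 0.442, and 0.0237 with the GC correction and the block). With arm medians subtracted ACACA stood at 0.054. ACACB, the mitochondrial carboxylase, and ME1, malic enzyme, had log2 fold changes of 0.24 and 0.038, and limma adjusted p of 0.334 and 0.836 with the block.

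The desaturase and elongase genes differed in direction. Apart from SCD, the desaturase genes had log2 fold changes of -0.073 (SCD5), -0.15 (FADS1) and -0.18 (FADS2), none of which passed the threshold with or without the block in limma. FADS2 passed it with the GC correction and the block (limma adjusted p = 0.0350). The ratio of SCD to SCD5, another gene for the same kind of desaturase, was 31.0 to 32.0 in the shControl libraries and 9.41 to 12.3 in the shEphexin1 libraries, on the FPKM scale. FADS1 and FADS2, which act on polyunsaturated fatty acids, overlap on opposite strands, so their values are uncertain.

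The 3 elongase genes on the list, whose products lengthen fatty acid chains, had higher means in shEphexin1, and all 3 rose with the block. With replicates 1 and 3 alone ELOVL1 passed an adjusted p of 0.05 (limma adjusted p = 0.0278), while ELOVL6 (0.134) and ELOVL5 (0.0938) did not. ELOVL6, which lengthens palmitate, was at 12.8, 12.2 and 12 FPKM in shControl against 17.1, 20.0 and 13.9 FPKM in shEphexin1. Every shEphexin1 library was above every shControl library (log2 fold change 0.45, SE 0.151, limma adjusted p = 0.130, and 0.0178 with the block). ELOVL1 had means of 105.2 ± 11.9 and 133.4 ± 16.9 FPKM without overlap, and ELOVL5 had means of 88.8 ± 8.94 and 107.3 ± 14.9 FPKM with overlap (SD, n = 3 each). With the block both rose, by 0.34 and 0.27 on the log2 scale (limma adjusted p = 0.00155 and 0.0047). The elongases and ACLY were the 4 members that rose with the block.

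Of the 4 genes of fatty acid activation and glycerolipid entry, ACSL3, an acyl-CoA synthetase of lipid droplets, was at 51.5, 62.4 and 46.8 FPKM in shControl against 36.6, 46.9 and 33.2 FPKM in shEphexin1. The groups overlapped by a narrow margin. The log2 fold change was -0.46 (SE 0.167, limma adjusted p = 0.148, and 0.000914 with the block). The synthetases ACSL1 and ACSL4 had log2 fold changes of 0.015 and 0.065. LPIN1, a phosphatidate phosphatase, had means of 16.7 and 14.7 FPKM without overlap (limma adjusted p = 0.383, and 0.0818 with the block).

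**Figure D4:**
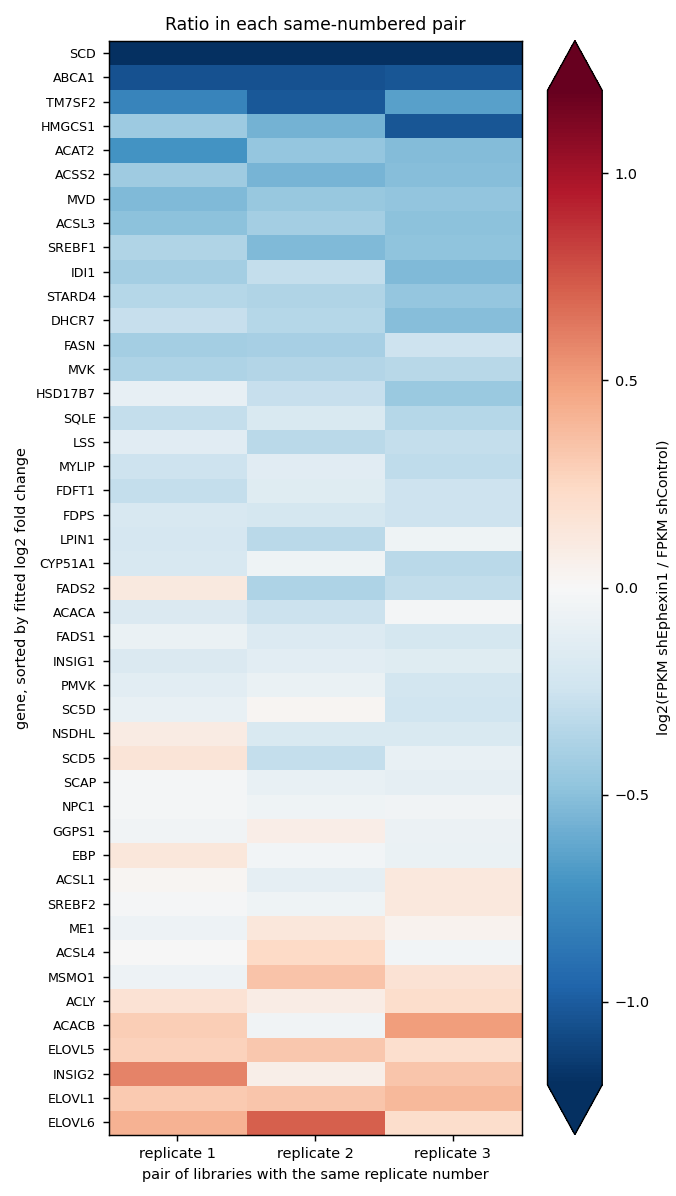
Log2 ratio of FPKM in shEphexin1 to shControl (colour, red above 0 and blue below) in each same-numbered pair of libraries (columns) for the tested members (rows, sorted by fitted log2 fold change). In 28 members all 3 pairs are below 0 and in 5 all 3 are above it, and SCD lies past the end of the colour scale in every pair.

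For comparison, 76 further lipid genes in 5 lists were examined, 73 of them tested. At an adjusted p of at most 0.05 in limma, 2 were lower and 4 higher (8.22%, against 7.01% of all genes), and with the block 14 were lower and 18 higher (43.8%, against 33.5%). Their median log2 fold change was -0.010. RXRA, a retinoid X receptor gene, was at 0.0810, 0.0858 and 0.0777 FPKM in shControl against 1.80, 1.31 and 2.19 FPKM in shEphexin1. It lay under the 0.1 FPKM limit of the filter in all shControl libraries and was tested only because the 3 shEphexin1 libraries were above it, so its values are given as a description, although it is among the 4 genes counted as higher. RXRB, another retinoid X receptor gene of the same list, had higher means in both groups, 12.7 FPKM in shControl and 13.8 FPKM in shEphexin1. Its log2 fold change was 0.10 (limma adjusted p = 0.807, and 0.379 with the block).

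Of the cholesterol handling genes, 7 of 12 tested rose and 1 fell with the block, against 13.8% and 19.7% of all genes. With the GC correction 3 rose and 1 fell, against 12.4% and 18.4% of all genes. With that correction and the block 5 rose and 2 fell, against 14.8% and 22.2%. NCEH1, a cholesteryl ester hydrolase, rose from a mean of 52.1 to 93.9 FPKM (log2 fold change 0.84, limma adjusted p = 0.00927). APOE, an acceptor of exported cholesterol, belongs to the same list and is named here after its values were seen. It had means of 20.3 ± 7.45 and 52.3 ± 19.7 FPKM (SD, n = 3 each, log2 fold change 1.35, limma adjusted p = 0.0788, and 0.000226 with the block). Of the glycerolipid genes, LPCAT2 rose from 1.24 to 3.81 FPKM, while LPCAT3 fell from 25.8 to 15.5 FPKM and LPIN2 from 17.0 to 10.0 FPKM. The last 2 lie on 12p and 18p, arms with medians of -0.43 and -0.46, and after subtraction of these medians both stood at -0.30, in place of -0.73 and -0.75. CPT1A, which brings fatty acids into mitochondria for oxidation, rose from 22 to 31.6 FPKM (log2 fold change 0.52, limma adjusted p = 0.0353). No gene of isoprenoid use was called without the block at an adjusted p of 0.05 in limma, and 3 of 13 (23.1%) rose with it, against 13.8% of all genes.

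**Figure D5:**
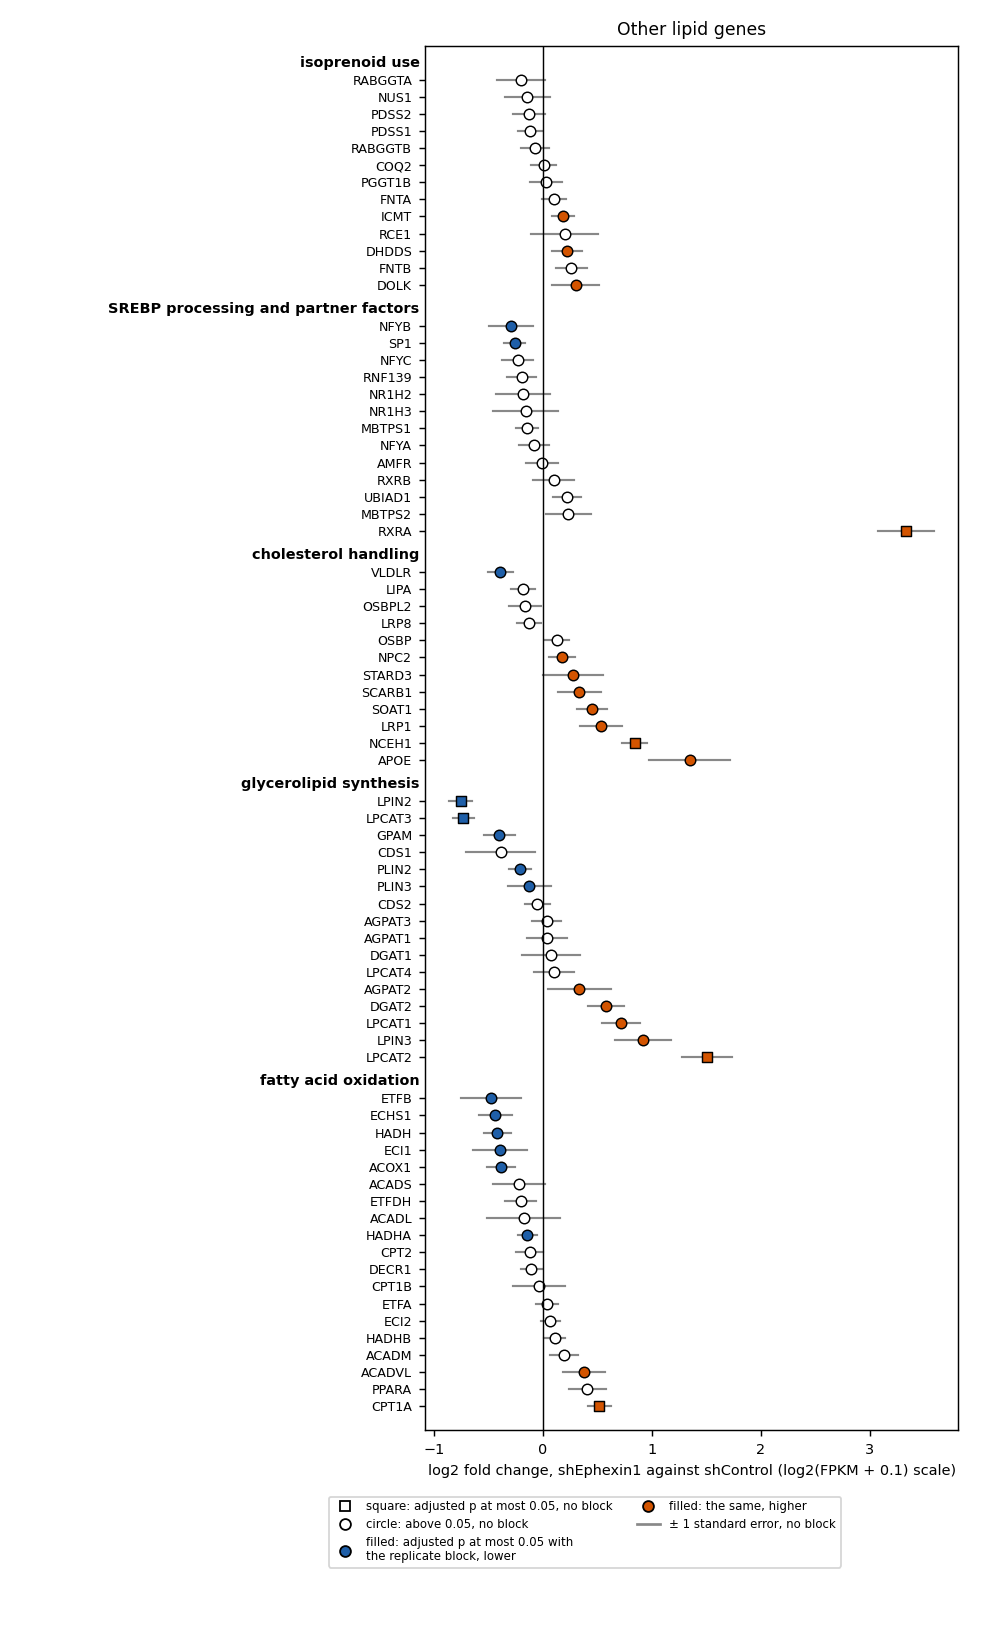
Log2 fold change of shEphexin1 against shControl (x axis, log2(FPKM + 0.1) scale) for the 73 tested genes of 5 other lipid lists, with bars of ± 1 SE and markers as in the plot of the members by role. RXRA (3.33, a value that depends on the pseudocount) lies farthest to the right, and LPIN2 (-0.75) and LPCAT3 (-0.73) farthest to the left.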

How the data were processed

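RNA from 3 shControl and 3 shEphexin1 libraries of H1299 cells was prepared with a stranded total RNA kit. Per the labels and the study's methods, the authors aligned reads to GRCh37/hg19 with TopHat2 2.0.13 and deposited FPKM per gene made with Cufflinks 2.2.1 (Cuffdiff, geometric normalization, pooled dispersion). The gene annotation is not given in the sources used here, and 0 value columns were left out. The labels name a neomycin vector and the methods a hygromycin vector.

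A gene was tested where 3 or more of the 6 libraries reached 0.1 FPKM (16020 of 26255). The tests used limma 3.58.1 on log2(FPKM + 0.1), run in R 4.3.3 with a trended eBayes prior, and p-values were adjusted over all 16020 genes by the Benjamini-Hochberg method. The script was tested on simulated data. Exact permutation tests of 3 against 3 cannot go below a two-sided p of 0.1, so none is reported per gene. Groups share replicate numbers in the labels, and deviations from the group means of same-numbered libraries correlated (r = 0.234, 0.639 and 0.513). Libraries with unlike numbers had r from -0.569 to 0.149, the highest for shControl replicate 3 with shEphexin1 replicate 1. The pairing is thus clearest for replicate 2 and uncertain for replicate 1. The numbers were taken to pair libraries, and fits with the replicate block are given where they change a call. Positions, GC content and length came from GENCODE on GRCh37, found for all 46 members. Per-library values are given for called members, the 12 with the largest absolute log2 fold change, SCD and 10 regulators and enzymes. Of each further lipid list up to 3 genes with the smallest adjusted p of at most 0.05 are named, RXRA with its value in each library and the others with group means. RXRB, which did not pass, is named beside RXRA. The members and lists were chosen with earlier results of these data known. Python 3.11.15, pandas 2.3.3 and matplotlib 3.10.9 were used. Alternatives changed the pseudocount, filter, scaling, variance model, block, GC correction, chromosome arm medians and libraries.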

Additional observations from a re-analysis of the deposited data

How the results depend on the processing

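SCD kept its call in all 20 alternative fits. Members past the study's rule were 1 rather than 2 with a pseudocount of 1 FPKM and with arm medians subtracted, and 1 to 2 when a library was left out. The 3 members at an adjusted p of at most 0.05 became 22 with the replicate block, 19 with a term for replicate 2, 12 with replicates 1 and 3 alone, 23 with the GC correction and 26 with that and the block, and 1 to 4 when a library was left out. Members whose groups did not overlap went from 16 to 33 with the GC correction, with or without the block. They numbered 31 with replicates 1 and 3 alone, and 16 to 26 when a library was left out. Groups of fewer libraries separate more easily, and the share of all genes was not computed for these settings. The higher counts with fewer libraries are therefore not a stronger result about the members. The genes of the other lipid lists, 6 without a block, numbered 32 with the block, 27 with the term, 14 with replicates 1 and 3 alone, 27 with the GC correction and 39 with that and the block, and 1 to 8 when a library was left out. NGEF passed 0.05 with the block (-0.53, limma adjusted p = 0.00284), the term (-0.53), replicates 1 and 3 alone (-0.54) and the GC correction without (-0.61) or with the block (-0.61). Beyond these and the values in the report, the replicate block changed no call. SREBF2 turned to -0.12 with the GC correction, with or without the block, to -0.054 with arm medians subtracted, and to -0.11, -0.022 and -0.10 without shControl replicate 2, shEphexin1 replicate 1 and shEphexin1 replicate 3 (highest 0.19, without shEphexin1 replicate 2). SCAP turned to 0.00091 with arm medians subtracted and to 0.11 and 0.15 without shControl replicate 3 and shEphexin1 replicate 2 (lowest -0.28, without shControl replicate 2), and ACACA to 0.054 with arm medians subtracted. The members' median log2 fold change, -0.18 in the main model, was -0.119 with quantile normalization (all genes 0.0040). It was -0.124 with arm medians subtracted (all genes 0.026) and -0.195 with the GC correction (all genes -0.016). Of 400 values for 20 named members, 322 kept direction and side of the threshold, 61 newly passed it, 7 lost it and 10 changed sign. The causes were not tested. Without read counts, depth sets no limit that can be stated.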
